A study of Mus musculus with 7 samples.

Results

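The miR-106b~25 cluster is a group of 3 microRNA (miRNA) hairpins, Mir106b, Mir93 and Mir25, that lie in an intron of Mcm7, the gene of a subunit of the replicative DNA helicase. Its members were chosen by name, as every row of the deposited table that comes from one of the 3 hairpins, whichever arm of the hairpin it represents. This gave 4 of the 252 mouse miRNAs of the table: mmu-miR-106b, mmu-miR-93, mmu-miR-25 and mmu-miR-106b*, named below without the species prefix, the last being the other arm of the miR-106b hairpin. All cells were sarcoma cells grown from soft tissue sarcomas of p53 knocked out mice. Control primary cells carried a non-target shRNA (2 arrays), Rb-depleted primary cells carried an shRNA against Rb (2 arrays), and Rb-depleted secondary cells were Rb-depleted cells taken from spheres and passaged once in 2D culture (3 arrays). The p53 deletion, the lentiviral shRNA vector and puromycin selection were shared by all groups, 1 Rb shRNA was used, and no array of control cells taken through sphere culture is part of the comparison. The series describes the arrays of a condition as independent experiments, and p-values measure the spread between these arrays.

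Mcm7 is a classical target of E2F, the transcription factor that the Rb protein holds in check, and the 3 miRNAs are processed from the Mcm7 transcript. The cluster is a paralogue of miR-17~92, and both are known as miRNAs of proliferating cells and of tumours, whose targets include the cell cycle inhibitor p21 (miR-106b and miR-93), the pro-apoptotic factor Bim (miR-25) and E2F1 itself. A change in Rb would therefore be looked for in all members together, and the arrays allow the members to be compared with each other.

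Because the bases that pair with targets decide which miRNAs can be grouped, the mature sequences are shown first (RefSeq, GRCm38.p6), 5′ to 3′, with the seed, bases 2 to 8, in capitals.
miR-106b: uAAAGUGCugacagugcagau
miR-93: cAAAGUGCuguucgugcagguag
miR-17: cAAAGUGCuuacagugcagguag
miR-20a: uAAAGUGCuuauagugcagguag
miR-20b: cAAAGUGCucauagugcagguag
miR-25: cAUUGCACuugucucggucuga
miR-92a: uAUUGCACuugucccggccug
miR-106b*: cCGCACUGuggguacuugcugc
The cluster thus holds 2 seeds in its main products. Seeds were compared over the 542 of 696 mouse miRNAs on the array that had a RefSeq mature sequence, so the counts are lower bounds. Among these, the seed AAAGUGC of miR-106b and miR-93 is carried by 5, the other 3 being miR-17, miR-20a and miR-20b. The seed AUUGCAC of miR-25 is carried by 6, of which only miR-25 and miR-92a are in the table. In the best alignment without gaps, miR-106b matched miR-93 at 16 of its 21 bases, and miR-17 and miR-20a at 18 each. miR-25 matched miR-92a at 18 of 21 bases, but miR-106b at only 7. The miRNAs compared here that share a seed thus also matched at most bases outside it, and whether their array signals are shared was not tested. Of the other arms, miR-93* (miR-93-3p) is on the array and was detected on 0 of the 7 arrays, and no probe of the array is assigned to the 5p arm of miR-25.

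On the NCBIM37 build (the build that the headers of the scanner files name), Mcm7 covers chr5:138605811-138613650 on the minus strand. Its transcript with 15 exons (ENSMUST00000000505) has the hairpins in intron 13, which is 748 bases long (chr5:138606390-138607137). Mir106b (chr5:138606965-138607046) comes first in the direction of transcription, 91 bases after exon 13. Mir93 (chr5:138606751-138606838) lies 299 bases after that exon and Mir25 (chr5:138606549-138606632) 505 bases after it. The 3 hairpins together span 498 bases, and the genome sequence of each equals the RefSeq hairpin. One annotated transcript with a retained intron (ENSMUST00000125316) has an exon at chr5:138606280-138606944 that contains Mir93 and Mir25 but not Mir106b, and no annotated Mcm7 exon contains Mir106b.

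**Figure D1:**
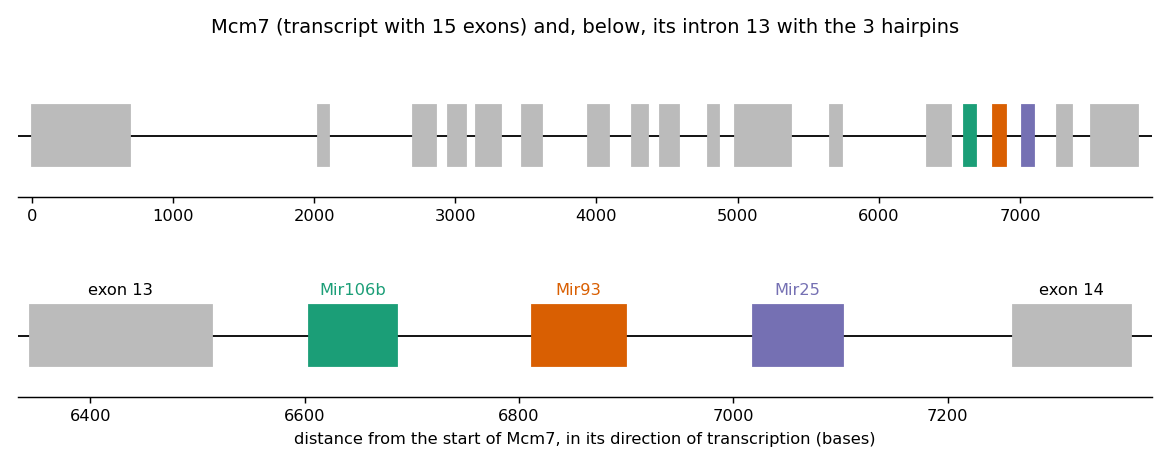
Map of Mcm7 drawn by distance from the gene's start (bases, in the direction of transcription), with exons in grey and the hairpins in colour. The upper panel shows the transcript with 15 exons, and the lower panel its intron 13, in which Mir106b, Mir93 and Mir25 lie one after another within 498 bases.

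Letters of an E2F site were looked for in the Mcm7 promoter because the comparison rests on that link. The windows searched ran from 250 bases before to 50 bases after a gene's start, on both strands, for TTTCCCGC, TTTCGCGC, TTTGGCGC and TTTGCCGC. One of the 2 Mcm7 windows in RefSeq (chr5:138171834-138172133, minus strand, GRCm38.p6) held 2 matches, shown here in capitals.
Mcm7 promoter, 165 bases before the start: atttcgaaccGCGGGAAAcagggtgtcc
Mcm7 promoter, 16 bases after the start: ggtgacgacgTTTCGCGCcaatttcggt
The first (chr5:138172031-138172058) is TTTCCCGC on the opposite strand, and the second lies at chr5:138171850-138171877. Of all 32851 promoter windows, 2.26% held at least 1 match. These letters describe the window only, and neither binding nor the Mcm7 transcript was measured on these arrays.

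The arrays report brightness summed over the probes of a miRNA (total gene signal, in intensity units), which the authors quantile normalized and gave as log2 values. All 252 miRNAs of the table were detected on all 7 arrays. Without normalization, the median log2 difference over these 252 miRNAs from control cells was −0.26 for the Rb-depleted primary and −0.46 for the secondary group, so the values below are relative to that shift. The 4 primary arrays and secondary replicate 1 shared a slide, and secondary replicates 2 and 3 lay on another. Of the 8 mesenchymal miRNA entries looked at, 7 were detected on all arrays, against 0 of 10 epithelial and 0 of 5 haematopoietic entries. Of 6 muscle entries, only miR-206 was detected. Of the 2 endothelial entries, miR-126-3p had a signal of 7.02 to 10.73 on the 4 primary arrays and was not detected on the 3 secondary arrays. The part of this in the comparisons with secondary cells was not tested, and in such bulk RNA fewer cells of a type and less RNA per cell cannot be told apart. Rb itself is not measured by a miRNA array, so the depletion could not be checked here.

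The 3 main products stood at similar levels, well inside the upper range of the table. Averaged over the 7 arrays, miR-106b was at 9.99 on the log2 scale (rank 52 of 252), miR-93 at 9.66 (rank 59) and miR-25 at 9.62 (rank 61), against a median of 6.90 over all miRNAs. miR-106b* was at 3.04 (rank 244), near the bottom. Probes differ in how brightly they label and bind, so that this order is one of array signals and not of molecules. The main products also varied little: the SD over the 7 arrays was 0.134 for miR-106b, 0.140 for miR-93 and 0.141 for miR-25, and between 11.1% and 14.3% of the table had a smaller one (the median of all SDs was 0.259). By contrast, 88.5% of the table had a smaller SD than miR-106b* (0.628).

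miR-106b, which shares its seed with miR-17, was at 9.87 and 9.95 (log2) on the control arrays, at 10.05 and 9.95 on the Rb-depleted primary arrays, and at 9.95, 10.27 and 9.90 on the secondary arrays. The 3 groups overlapped, and secondary replicate 2 was the highest array. The log2 difference from control cells was 0.09 (SE 0.14) in Rb-depleted primary and 0.13 (SE 0.13) in Rb-depleted secondary cells, with adjusted p of 0.708 and 0.507 (limma, Benjamini-Hochberg over 252 miRNAs). The 95% intervals were −0.27 to 0.45 and −0.19 to 0.46, so that a rise of up to about 0.45 on the log2 scale lay inside both.

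miR-93 was at 9.68 and 9.55 (log2) on the control arrays, at 9.95 and 9.61 on the Rb-depleted primary arrays, and at 9.68, 9.53 and 9.61 on the secondary arrays. Again the groups overlapped, with Rb-depleted primary replicate 1 above all other arrays. The log2 difference from control cells was 0.16 (SE 0.14, adjusted p = 0.484, limma) in Rb-depleted primary cells, and it was −0.0056 without replicate 1. In Rb-depleted secondary cells it was −0.0069 (SE 0.12, 95% interval −0.32 to 0.30, adjusted p = 0.977, limma).

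miR-25, the member with the other seed, was at 9.44 and 9.47 (log2) on the control arrays, at 9.79 and 9.79 on the Rb-depleted primary arrays, and at 9.66, 9.61 and 9.55 on the secondary arrays. None of the 3 groups overlapped: control arrays were lowest, Rb-depleted primary arrays highest, and secondary arrays in between. The log2 difference from control cells was 0.33 (SE 0.08, 95% interval 0.14 to 0.53) in Rb-depleted primary cells. This ranked 37 of 252, and with an unadjusted p of 0.00585 and an adjusted p of 0.102 (limma) it did not pass 0.05. The difference was 0.15 (SE 0.07, adjusted p = 0.172, limma) between secondary and control cells and −0.18 (SE 0.07, adjusted p = 0.116, limma) between secondary and Rb-depleted primary cells.

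miR-106b*, the arm of the miR-106b hairpin with the lower array signal, was at 2.11 and 3.16 (log2) on the control arrays, at 3.59 and 3.59 on the Rb-depleted primary arrays, and at 3.44, 3.16 and 2.20 on the secondary arrays. The Rb-depleted primary arrays were above all other arrays, while control and secondary arrays overlapped widely. Its log2 difference of 0.96 between Rb-depleted primary and control cells ranked 6 of 252, but its SE was 0.51 and its adjusted p 0.296 (limma). Control replicate 1 carried much of it: the difference was 0.44 without that array and 1.48 without control replicate 2, and it was between 0.23 and 0.72 under the other scalings of the arrays. In secondary cells the difference from control cells was 0.30 (SE 0.46, adjusted p = 0.687, limma).

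**Figure D2:**
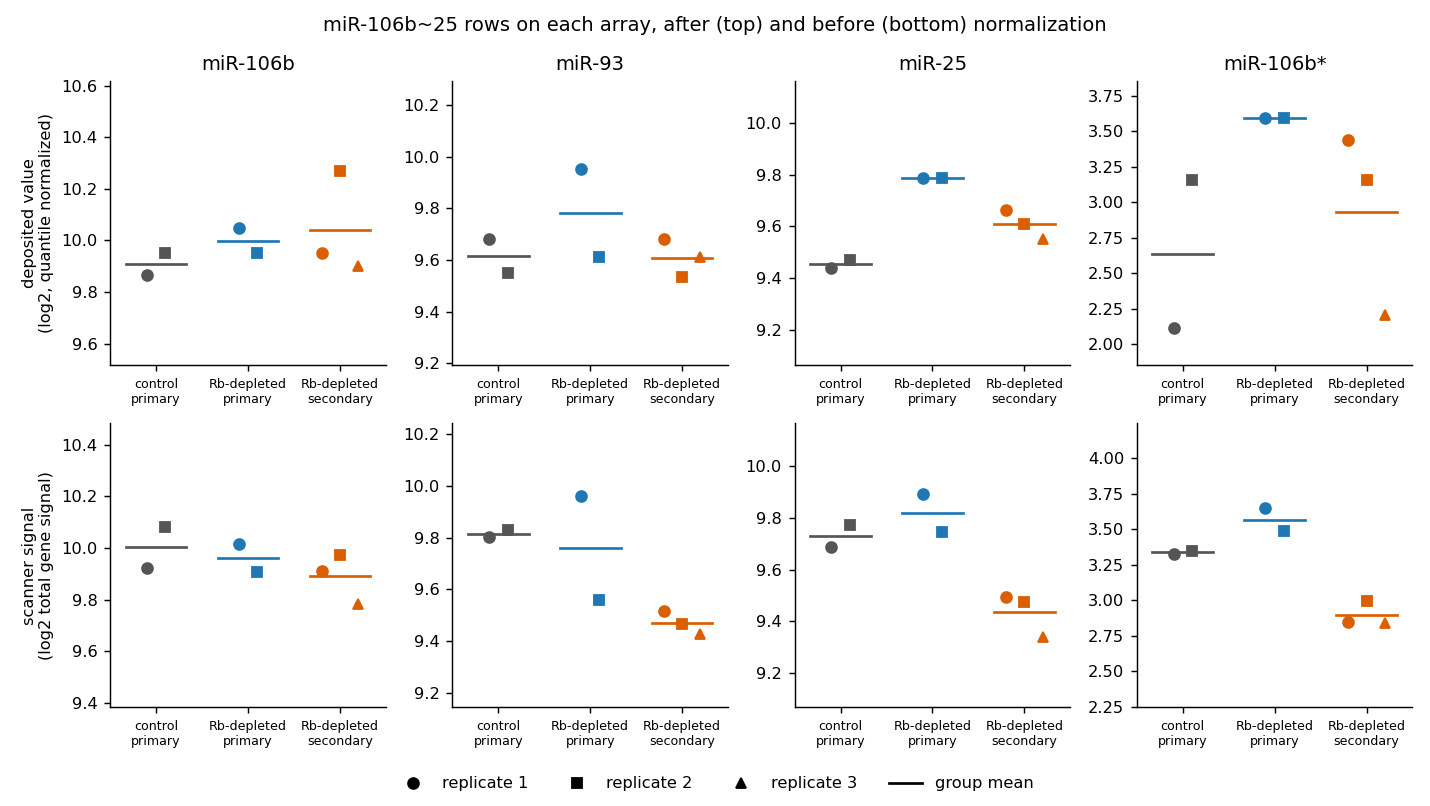
Values of the 4 rows of the cluster on each of the 7 arrays, with the deposited log2 values above and the log2 total gene signal of the scanner below (vertical axes, log2; the panels of the 3 main products span 1.1 units each), arrays by group on the horizontal axis and group means as lines. After normalization the groups of miR-106b and miR-93 overlap and those of miR-25 do not; before it, control and Rb-depleted primary arrays of miR-25 overlap and all 3 secondary arrays of miR-93, miR-25 and miR-106b* lie below the primary arrays.

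Read as a group, 0 of the 4 rows passed an adjusted p of 0.05 in any of the 3 comparisons, with or without limma's moderation. Over all 252 miRNAs, the share that passed this threshold by limma was 1.59% between Rb-depleted primary and control cells, 22.6% between Rb-depleted secondary and control cells, and 20.2% between secondary and primary Rb-depleted cells. At an unadjusted p of 0.05 (limma), 1 of the 4 rows passed between Rb-depleted primary and control cells, 0 between secondary and control cells, and 1 between secondary and primary Rb-depleted cells, each time miR-25. The shares of the table at this unadjusted threshold were 25.4%, 36.5% and 40.5%, so that the counts of the cluster did not exceed them. The median log2 difference of the 4 rows was 0.25, 0.14 and −0.18 in these comparisons, beside 0.01, 0.03 and 0.02 over all miRNAs. Groups of arrays that do not overlap were common in the table: 57.5%, 52% and 51.2% of the miRNAs had them in the same order of comparisons. Of the 4 rows of the cluster, 2 had them between Rb-depleted primary and control cells (miR-25 and miR-106b*), 1 between secondary and control cells (miR-25) and 2 between secondary and primary Rb-depleted cells (miR-25 and miR-106b*). These counts of the cluster were thus not above the share in the table.

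**Figure D3:**
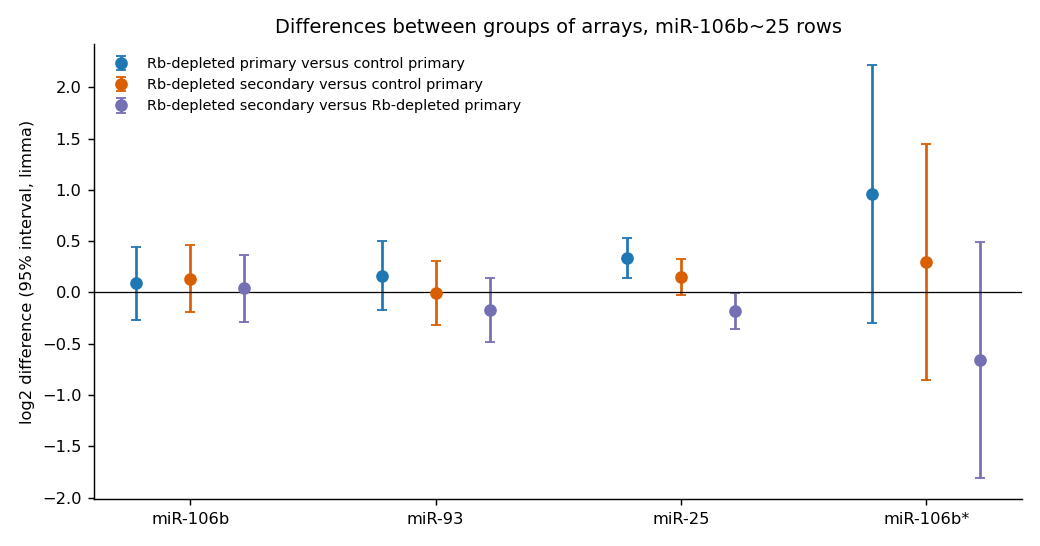
Log2 differences of the 4 rows of the cluster in the 3 comparisons (vertical axis, log2), with bars for the 95% interval of the limma fit, not adjusted for the number of miRNAs. The interval of miR-25 lies above 0 between Rb-depleted primary and control cells (0.14 to 0.53), and those of miR-106b* are the widest.

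The question of the study, which miRNAs follow both Rb depletion and sphere derivation, was asked by a test of any difference among the 3 groups (limma F-test, adjusted p under 0.1) and then by Dunnett's adjustment against control cells. The first step was passed by 43.3% of the table and by 1 of the 4 rows, miR-25 (adjusted p = 0.0585). miR-106b (0.669), miR-93 (0.474) and miR-106b* (0.329) did not pass by limma's F-test. Both steps with the same direction in both comparisons were passed by 6.75% of the table and by 0 of the 4 rows. For miR-25 the Dunnett p from the limma fit was 0.0102 for Rb-depleted primary and 0.124 for secondary cells. The outcome for miR-25 changed with some settings. The study itself reported miR-25 among the miRNAs that passed both of its steps. The form closest to the study's methods, an ordinary analysis of variance, leaves out limma's moderation over miRNAs. In that form the F-test of miR-25 had an adjusted p of 0.045 and its Dunnett p values were 0.00222 and 0.0258, which passes both steps. That form takes the spread from miR-25 alone. Its SD over the Rb-depleted primary arrays was 0 in the deposited values, against 0.10 in the log2 scanner signals. Over the control arrays it was 0.022, against 0.062. Without moderation the first step was passed by 24.6% of the table and both steps by 5.16%. Fewer miRNAs passed each step in the study, so that form does not reproduce its counts, and the reason was not tested. With the median spot signal in place of the total gene signal, miR-25 passed both steps too (limma adjusted p 0.0508, Dunnett p 0.00371 and 0.0296).

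The equal values of both Rb-depleted primary arrays came from the normalization. Quantile normalization gives each miRNA the common value of its rank among all 718 features normalized together. Among the table's miRNAs alone, miR-25 held rank 55 on both. A shared rank in the table does not by itself fix the value: miR-25 held rank 66 on both control arrays, at 9.44 and 9.47. The total gene signals themselves came to 823.5 and 874.9 on the control arrays, 949.8 and 859.1 on the Rb-depleted primary arrays, and 720.7, 710.6 and 648.3 on the secondary arrays. On this scale the control and Rb-depleted primary arrays overlapped and the secondary arrays were the lowest. The log2 difference of miR-25 without normalization was 0.09 in Rb-depleted primary and −0.29 in secondary cells, each to be read against the medians of −0.26 and −0.46 over all miRNAs. miR-25 was therefore above the typical miRNA of the same arrays on either scale.

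The values of miR-106b* moved more with the scale. The scanner gave it a total gene signal of 10.1 and 10.2 on the control arrays, 12.6 and 11.2 on the Rb-depleted primary arrays, and 7.19, 7.97 and 7.17 on the secondary arrays. The dimmest miRNA detected on an array had a signal of 3.38 to 5.37. The 3 groups did not overlap on this scale. The deposited values of secondary replicate 1 and 3 differed by more than 1 on the log2 scale (3.44 and 2.20), although their signals of 7.19 and 7.17 were nearly the same and both held rank 246 in the table. The normalization had ranked 718 features, and 258 and 283 mouse miRNAs were detected on these arrays. Of its 4 probes (5 spots each), the 1 probe with the most signal made up the whole signal reported. Without normalization, the log2 difference between secondary and control cells was −0.45 (limma adjusted p = 0.0312), against 0.30 in the deposited values, and against a median of −0.46 over all miRNAs.

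The differences of miR-106b and miR-93 in secondary cells moved with the scaling too. Scaled to the 75th percentile of the table's miRNAs, the log2 difference from control cells in secondary cells was 0.34 for miR-106b and 0.11 for miR-93, in place of 0.13 and −0.0069. The adjusted p values were 0.129 and 0.641 (limma). In Rb-depleted primary cells, miR-25 had the largest value of the 3 main products under each of the 6 scalings compared, from 0.09 without normalization to 0.47 with scaling to the 75th percentile of all mouse miRNAs. Scaling to that percentile moved the median of all miRNAs by 0.12 in Rb-depleted primary cells. No main product passed an adjusted p of 0.05 in any comparison under any of 18 alternatives.

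**Figure D4:**
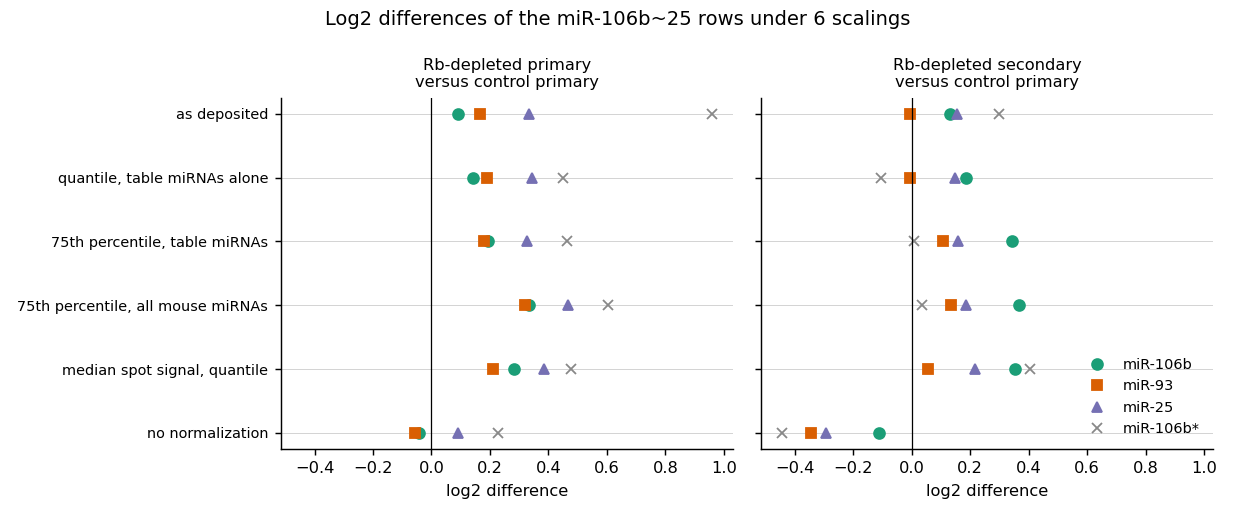
Log2 difference from control primary cells (horizontal axes) of each row of the cluster under 6 ways of scaling the arrays (vertical axis), for Rb-depleted primary cells on the left and Rb-depleted secondary cells on the right. Among the 3 main products, miR-25 is the rightmost in every line of the left panel, from 0.09 to 0.47, and without normalization all rows lie below 0 in the right panel.

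Each main product was read by 2 probes with 10 spots each. The brighter probe gave between 65.4% and 66.8% of the signal of miR-106b, between 77.3% and 80.5% of that of miR-93, and between 65.8% and 69.9% of that of miR-25. Relative to the median of the table's miRNAs on each array, the probes of miR-25 gave log2 differences of 0.52 and 0.43 between Rb-depleted primary and control cells, those of miR-106b 0.32 and 0.36, and those of miR-93 0.35 and 0.31. Between secondary and control cells the values were 0.17 and 0.20 for miR-25, 0.36 and 0.39 for miR-106b, and 0.04 and 0.16 for miR-93. Both probes of a miRNA thus pointed the same way against this reference, and the values of each main product were larger than in the deposited table. The median used as reference was 7.14 and 7.30 on the control arrays and 6.93 and 6.77 on the Rb-depleted primary arrays. Without normalization, the log2 difference of miR-106b between these groups was −0.041, so its sign depends on the reference. Among the 10 spots of a probe the coefficient of variation was 2.62% to 11.1%, except for 1 probe of miR-25, where it reached 26.8%.

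Since the hairpins come from 1 intron, the members were also compared within each array, where a single scale factor of the array cancels. Quantile normalization is not such a factor, so differences of the deposited values still depend on it. In secondary replicate 2, for example, miR-106b exceeded miR-93 by 0.73 in the deposited values and by 0.51 in the scanner signals. The values that follow are the deposited ones unless stated otherwise. miR-106b exceeded miR-93 on all 7 arrays, by 0.19 and 0.40 in control primary, 0.10 and 0.34 in Rb-depleted primary, and 0.27, 0.73 and 0.29 in secondary cells. miR-106b exceeded miR-25 by 0.43 and 0.48 in control primary, 0.26 and 0.16 in Rb-depleted primary, and 0.29, 0.66 and 0.35 in secondary cells. For this pair, both Rb-depleted primary arrays were below both control arrays and the secondary arrays lay on either side. The difference between miR-93 and miR-25 was 0.24 and 0.08 in control primary, 0.16 and −0.18 in Rb-depleted primary, and 0.02, −0.07 and 0.06 in secondary cells. These last 3 values were below both control values. Without normalization, all 3 secondary arrays of miR-106b minus miR-25 (0.42, 0.50 and 0.44) lay above both control arrays (0.24 and 0.31). The same held for miR-106b minus miR-93 (0.40, 0.51 and 0.36, against 0.12 and 0.25).

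In exact two-sided permutation tests over arrays, no pair of rows changed its difference with an adjusted p under 0.84 (24 tests over 6 pairs of rows and 4 comparisons, Benjamini-Hochberg). With 2 against 2 arrays the smallest p such a test can give is 0.33, with 2 against 3 it is 0.1, and with all 5 Rb-depleted arrays against 2 control arrays it is 0.0476. None of these could have passed 0.05 after adjustment over the 24 tests, so the values are given as a description. The change of miR-93 relative to miR-25 in secondary cells was −0.16 on the log2 scale (exact permutation test, p = 0.1, the smallest possible). It was −0.051 without normalization (exact permutation test, p = 0.3), where secondary replicate 3 (0.085) lay above control replicate 2 (0.055), and it was −0.081 and −0.24 in the deposited values without control replicates 1 and 2. In all Rb-depleted arrays together it was −0.17 (exact permutation test, p = 0.19). The corresponding change of miR-106b relative to miR-25 was −0.11 (exact permutation test, p = 0.524), and of miR-106b relative to miR-93 0.05 (exact permutation test, p = 0.81). In secondary cells against control cells, these 2 changes were −0.02 and 0.14 in the deposited values. Without normalization they were 0.18 and 0.23 (exact permutation test, p = 0.1 each, the smallest possible). Whether the members responded unequally was not settled by these tests.

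**Figure D5:**
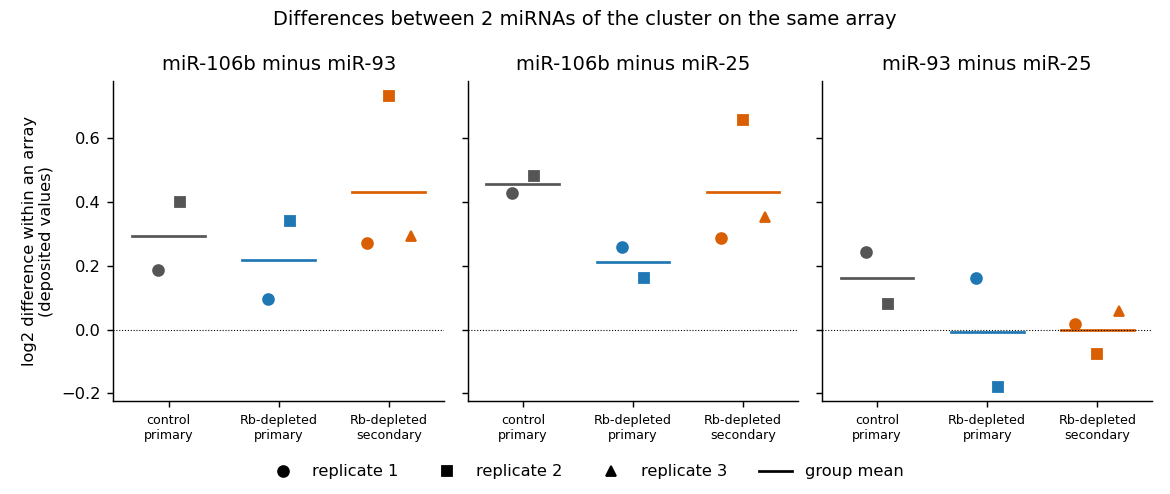
Log2 difference between 2 main products of the cluster on the same array (vertical axis, deposited log2 values), by group (horizontal axis), with symbols for replicates and lines for group means. miR-106b lies above miR-93 and miR-25 on each of the 7 arrays, and the secondary arrays of miR-93 minus miR-25 (0.02, −0.07 and 0.06) lie below both control arrays.

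In the deposited values, the members did not follow each other closely over the 7 arrays. Correlations on other scales, such as the scanner signals, were not computed, so whether this holds there was not tested. Pearson's r was 0.50 between miR-93 and miR-25, 0.29 between miR-106b and miR-25, and −0.09 between miR-106b and miR-93, given as a description over 7 arrays that share their normalization. By this measure, miR-93 ranked 155 of the 250 other varying miRNAs in its likeness to miR-106b. The closest pair was miR-25 and miR-106b* (r = 0.78), with miR-106b* at rank 9 from miR-25. The 5 miRNAs most like the mean of the 3 main products were miR-183 (r = 0.85), miR-96 (0.84), miR-182 (0.79), miR-467a-1* (0.78) and miR-30a (0.77). miR-183, miR-96 and miR-182 are known as products of 1 cluster of their own. They ranged more widely than the members, by 1.30, 1.49 and 1.77 on the log2 scale, while miR-30a ranged by 0.14.

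The 3 miRNAs outside the cluster that carry the seed of miR-106b and miR-93 did not pass the test either. miR-17, miR-20a and miR-20b had log2 differences of 0.28, 0.18 and 0.15 in Rb-depleted primary and −0.0039, 0.16 and 0.095 in secondary cells relative to control cells, with a lowest adjusted p of 0.232 (limma). All 3 had groups that did not overlap between Rb-depleted primary and control cells, as had 57.5% of the table. miR-92a, which carries the seed of miR-25, was at 10.38 and 10.52 on the control arrays, at 10.69 and 10.80 on the Rb-depleted primary arrays, and at 10.66, 10.84 and 10.80 on the secondary arrays. Its control arrays were below all Rb-depleted arrays. Its log2 differences from control cells were 0.30 (SE 0.10, adjusted p = 0.155, limma) and 0.32 (SE 0.10, adjusted p = 0.0659, limma). Beside the 0.33 and 0.15 of miR-25, both miRNAs with this seed were thus similar in Rb-depleted primary cells, and a difference between them in secondary cells was not tested.

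Of the other miRNAs on the array with the seed of miR-25, miR-32 was detected on 5 arrays (highest signal 18.4), and miR-92b, miR-363 and miR-367 were detected on 0 arrays.

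The paralogous cluster miR-17~92 had 9 rows in the table. Their median log2 difference was 0.28 in Rb-depleted primary and 0.33 in secondary cells relative to control cells, beside 0.25 and 0.14 for the 4 rows of miR-106b~25. In Rb-depleted primary cells 0 of the 9 passed by limma, and 3 had an unadjusted p under 0.05, beside 1.59% and 25.4% of the table. In secondary cells 3 of the 9 were higher than in control cells (miR-18a, miR-19b and miR-20a*, adjusted p 0.0323, 0.0398 and 0.0246, limma), and 2 were higher than in Rb-depleted primary cells (miR-19a and miR-19b, adjusted p 0.0476 and 0.0307, limma). The shares of the table that passed in these comparisons, in either direction, were 22.6% and 20.2%. Of the miRNAs listed here for the X-linked paralogous cluster (miR-106a, miR-18b, miR-20b and miR-363), only miR-20b was in the table. Of 8 rows of other miRNAs linked to E2F (miR-15b and miR-16, which lie in an intron of Smc4, and let-7a, let-7d and let-7i), 8 had a positive log2 difference in both comparisons with control cells, with medians of 0.16 and 0.36. Over the whole table, 127 and 135 of 252 were positive. Only let-7a* passed, in secondary cells (0.60, adjusted p = 0.0335, limma), and miR-449a, miR-449b and miR-449c were detected on 0 arrays. That the clusters differed from each other was not tested. Nor was the locus that mature miRNAs such as miR-19b, miR-92a and miR-16 came from, so their rows cannot be credited to 1 cluster alone.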

How the data were processed

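RNA of 7 samples was measured on Agilent 1-colour mouse miRNA arrays. For 252 mouse miRNAs the authors deposited log2 values, made in GeneSpring by the quantile method. The 11 control rows of that table were left out here. They also deposited scanner files with the intensity of each spot, probe and miRNA (Feature Extraction 10.7.3.1 per the labels, 11.0.1.1 per the file headers). Quantile normalization of the log2 total gene signal of 718 features gave the deposited values to within 3.24e-06. Through these values 57 table names matched scanner names as written, 175 by their stem, and 20 by value alone. All columns of values were used (0 left out).

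One mean per group was fitted to all 7 arrays with limma 3.58.1 (R 4.3.3), with 4 residual degrees of freedom and Benjamini-Hochberg adjustment over 252 miRNAs at 0.05. The F-test threshold was 0.1, followed by Dunnett's adjustment at 0.05. These steps and thresholds follow the study's methods, which used an ordinary analysis of variance where limma's moderated F-test was used here, and the form without moderation was an alternative. Within-array differences were tested by exact permutation. The procedure was tested on simulated data with shifts larger than the differences of the main products. That test does not show how often differences of the size seen here would be found. The members, the comparison lists and the tests were chosen with earlier results of these data known. The rule named the rows of the 3 hairpins and their other arms, miRNAs with the same seed, the paralogous clusters, other miRNAs linked to E2F, and the 5 miRNAs most like the mean of the main products. miR-1937b, at 1 value on all arrays, was left out of correlations. Array weights used statmod 1.5.0, and other steps used pandas 2.3.3 and numpy 2.4.6 in Python 3.11.15. Of the 252 table miRNAs, 198 had a RefSeq mature sequence, as had all 4 rows of the cluster. The number of arrays limits the precision. Whether replicates were separate cultures is not stated. The closing section lists the alternatives. The F-test and Dunnett step were added to them after the data were seen.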

Additional observations from a re-analysis of the deposited data

How the results depend on the processing

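Each log2 difference was computed under 18 alternatives: scaling to the 75th percentile (of the table or of all mouse miRNAs), quantile normalization of the table alone, arrays left as scanned, every mouse miRNA on the array (signals raised to at least 1), the median spot signal, trend and robust moderation, no moderation, array weights, a replicate block, slide as a term, and each array left out. Of 216 values, 4 passed an adjusted p of 0.05 by limma and 0 of the 162 values of the 3 main products did. Over all results, 369 alternative values kept their direction and their side of the threshold and 60 did not. Many of the 369 could not change direction. The forms of moderation leave a log2 difference as it was, and so does leaving out an array of a group that is not compared. The count is therefore no measure of robustness. All 4 that passed were of miR-106b*: between secondary and Rb-depleted primary cells it was −0.57 with the 75th percentile of all mouse miRNAs, −0.55 with quantile normalization of the table and −0.67 without normalization, and between secondary and control cells −0.45 without normalization. With quantile normalization of the table the latter was −0.11. The median spot signal left it near the floor of the scale on all arrays.

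The causes of the changes of sign were not tested. Without normalization, miR-106b was at −0.041, −0.11 and −0.070 (Rb-depleted primary and secondary against control, secondary against primary), miR-93 at −0.056 in Rb-depleted primary cells and miR-25 at −0.29 in secondary cells. miR-93 in secondary against control cells was 0.11 and 0.13 with the 75th percentile of the table and of all mouse miRNAs, 0.056 with the median spot signal, 0.015 with array weights and 0.065 with slide as a term. miR-106b between secondary and Rb-depleted primary cells was −0.015 with array weights and −0.049 with slide as a term.

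With an array left out, values ranged from −0.073 to 0.11 for miR-106b between secondary and Rb-depleted primary cells, from −0.0056 to 0.34 for miR-93 in Rb-depleted primary cells, from −0.072 to 0.058 for miR-93 in secondary cells, and from −0.22 to 0.82 for miR-106b* in secondary cells. The lowest miR-93 value in Rb-depleted primary cells was without replicate 1 of that group and the highest without replicate 2. The range of miR-106b* came from leaving out control replicates 1 and 2, and where 1 array of a group was left, its spread was taken to equal that of the other groups.

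The F-test of miR-25, with an adjusted p of 0.0585, had 0.291 with the 75th percentile of the table, 0.187 with the replicate block, 0.103 with slide as a term and 0.0612 to 0.159 with an array left out (limma). It was under 0.1 in 10 of 18 alternatives, its Dunnett p in Rb-depleted primary cells (0.00222 to 0.764) under 0.05 in 16, and both Dunnett p values with the F-test in 2. That of miR-106b was 0.0976 with the 75th percentile of all mouse miRNAs, and that of miR-106b* was 0.0746 and 0.0207 with the 2 percentiles, 0.0278 with quantile normalization of the table and 0.0155 without normalization (limma). miR-93 stayed above 0.1.

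Within arrays, where most tests could not reach 0.05, directions changed as follows. miR-106b relative to miR-93 in Rb-depleted primary cells changed by 0.015 with the 75th percentile of the table or no normalization and by 0.069 with the median spot signal. miR-106b relative to miR-25 in secondary cells changed by 0.18 with the 75th percentile or no normalization, 0.036 with quantile normalization of the table and 0.14 with the median spot signal, and in all Rb-depleted arrays by 0.057 and by 0.040 with the median spot signal. miR-93 relative to miR-25 between secondary and Rb-depleted primary cells changed by −0.0018 with quantile normalization of the table. With an array left out, the ranges were −0.20 to 0.048, −0.012 to 0.25 and −0.054 to 0.16 for miR-106b relative to miR-93 (primary, secondary and all Rb-depleted against control), −0.14 to 0.050 for miR-106b relative to miR-25 (secondary), −0.34 to 0.00096 for miR-93 relative to miR-25 (primary), and −0.16 to 0.18 for it between secondary and primary Rb-depleted cells.

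Whether the replicate numbers pair the samples was not settled. Deviations of same-numbered arrays correlated between −0.141 and 0.134, but with 2 arrays in a group the deviations of one mirror those of the other. With the replicate block 0, 4 and 0 miRNAs passed, in place of 4, 57 and 51, and with slide as a term 0, 6 and 0. Pairing arrays 1 and 2 by number gave 0.018 for miR-106b relative to miR-25 (secondary against control) and −0.021 for miR-93 relative to miR-25 (secondary against primary). The signal of miR-106b*, 7.17 to 12.6, was close to that of the dimmest miRNA detected on an array (3.38 to 5.37).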
